A study of Mus musculus with 19 samples.

Results

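The genes described here drive a single process, the copying and separation of chromosomes, and comprise 49 cell cycle and DNA replication genes. They were chosen by name, as 25 genes of G2 phase and mitosis and 24 genes of DNA replication. Earlier results of these data were known when they were chosen. All 49 were found among the 33559 rows of the deposited table. The table holds bulk RNA-seq of bone marrow monocytes from wild-type mice in 5 libraries. In 2 libraries, called controls 1 and 2, the labelled treatment was none, and in 3 libraries, called G-CSF replicates 1 to 3, it was G-CSF, a growth factor for the granulocyte lineage. The labels give no dose, duration, strain, sex or age, and do not say whether G-CSF was given to animals or to cultured cells. Nothing in them ties a replicate to its own animal or culture. A p-value here therefore reflects how far these libraries scatter, and that scatter may be technical. Against 1 control alone, it reflects the scatter of the G-CSF libraries only. The other 14 samples of the series, single-cell libraries of skin, were not analysed here.

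A cell that divides first loads the MCM helicase onto replication origins, then activates it with Cdc45 and the GINS complex and copies its DNA with the polymerases and their clamp, and only then enters mitosis under cyclin B and Cdk1. Most of these genes are kept silent in resting cells and are transcribed in 2 waves, replication genes at the G1/S boundary under E2F factors and mitotic genes in G2 through a promoter element called the cell cycle genes homology region (CHR), usually beside CCAAT boxes. In bone marrow, cells of the monocyte lineage divide mainly as precursors, and mature monocytes divide little, so the summed RNA of a monocyte preparation reflects both how many cells are cycling and how much each transcribes. In bulk RNA, fewer cycling cells and less RNA per cell cannot be told apart.

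Promoter windows of 5 genes are shown because they display both waves in sequence. RefSeq windows on GRCm38.p6, from 250 bases before to 50 bases after the annotated start, were available for 41 of the 49 genes, in 47 windows. They are written 5′ to 3′ on the gene's own strand, which is the minus strand for all 5. Capitals mark the CHR (TTTGAA or TTTAAA), the CCAAT box (CCAAT) and an E2F-like element (TTTCCCGC, TTTGGCGC or TTCCCGCC), each searched on both strands. The windows lie at chr9:70421505-70421804 for Ccnb2, chr11:99024140-99024439 for Top2a, chr7:135716330-135716629 for Mki67, chr1:20820263-20820562 for Mcm3 and chr1:128359656-128359955 for Mcm6.
Ccnb2: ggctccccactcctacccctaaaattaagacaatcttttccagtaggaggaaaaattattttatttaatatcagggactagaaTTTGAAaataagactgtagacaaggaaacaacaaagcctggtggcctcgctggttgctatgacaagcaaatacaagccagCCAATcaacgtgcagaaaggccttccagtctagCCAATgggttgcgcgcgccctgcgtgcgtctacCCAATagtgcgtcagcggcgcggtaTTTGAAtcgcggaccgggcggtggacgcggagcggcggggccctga
Top2a: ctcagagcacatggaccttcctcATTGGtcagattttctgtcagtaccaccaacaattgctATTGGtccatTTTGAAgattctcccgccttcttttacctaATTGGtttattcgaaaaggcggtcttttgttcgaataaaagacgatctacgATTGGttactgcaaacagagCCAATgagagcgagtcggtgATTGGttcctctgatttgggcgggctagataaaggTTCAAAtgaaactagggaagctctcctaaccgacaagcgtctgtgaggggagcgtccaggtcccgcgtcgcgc
Mki67: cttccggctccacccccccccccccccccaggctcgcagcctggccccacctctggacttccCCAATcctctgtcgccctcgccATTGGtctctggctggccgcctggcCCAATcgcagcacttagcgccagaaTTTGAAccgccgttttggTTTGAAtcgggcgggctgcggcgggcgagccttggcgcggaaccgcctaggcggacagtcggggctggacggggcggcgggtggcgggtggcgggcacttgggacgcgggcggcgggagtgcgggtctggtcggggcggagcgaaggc
Mcm3: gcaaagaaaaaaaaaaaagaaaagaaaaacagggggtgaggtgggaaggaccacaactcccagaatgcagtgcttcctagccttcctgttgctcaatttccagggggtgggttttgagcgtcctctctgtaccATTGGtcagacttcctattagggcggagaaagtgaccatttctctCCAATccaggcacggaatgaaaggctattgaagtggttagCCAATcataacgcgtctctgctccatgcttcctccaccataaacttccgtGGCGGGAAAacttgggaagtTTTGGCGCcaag
Mcm6: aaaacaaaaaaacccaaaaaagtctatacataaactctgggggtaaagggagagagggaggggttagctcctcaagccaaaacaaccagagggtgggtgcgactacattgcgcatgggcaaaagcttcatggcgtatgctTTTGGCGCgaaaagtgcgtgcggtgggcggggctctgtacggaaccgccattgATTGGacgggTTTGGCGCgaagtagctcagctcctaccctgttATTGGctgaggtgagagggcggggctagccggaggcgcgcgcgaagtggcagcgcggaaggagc
The 3 mitotic genes carried 2 CHR matches each and no E2F-like match, and the 2 MCM genes carried E2F-like matches and no CHR. In Mki67 the CHR matches began 116 and 98 bases before the start. The 3 E2F-like matches of Mcm3 all lay after the start, and a pair of them overlapped, since TTTCCCGC and TTCCCGCC share letters.

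Over all windows the same contrast held by count. A CHR was present in 20 of 22 windows of the G2 and mitosis genes (90.9%), in 7 of 25 windows of the replication genes (28.0%) and in 27.6% of all 32851 RefSeq windows of the same length. Within the 250 bases before the start, these shares were 54.5%, 20.0% and 25.2%. An E2F-like element was present in 0 of 22 windows of G2 and mitosis genes, in 12 of 25 windows of replication genes (48.0%) and in 3.21% of all windows. A CCAAT box was found in 90.9%, 60.0% and 37.4% of the windows, and the GC box GGGCGG in 86.4%, 68.0% and 35.7%. These matches describe letters in a window and are not evidence of a bound factor.

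In FPKM, which is scaled to gene length and library size, the 49 genes took the order control 1 above the 3 G-CSF libraries above control 2. Their median level was 9.26 FPKM in control 1 and 3.96 FPKM in control 2, against 7.04, 8.89 and 7.06 FPKM in G-CSF replicates 1 to 3. The G-CSF libraries lay wholly between the controls, with control 1 on top, in 30 of the 49 genes, against 13.1% of the 16791 genes tested. Of these 30 genes, 18 were among the 25 of G2 and mitosis and 12 among the 24 of replication. Control 1 exceeded control 2 in 43 of 49 genes, against 56.0% of all genes tested, with a median ratio of 2.42 and a range from 0.390 for Mki67 to 7.83 for Gins1. The coefficient of variation within the 3 G-CSF libraries ranged from 2.79% to 36.8%, with a median of 15.0%. G-CSF replicate 2 was the highest of its group in 38 of 49 genes, against 39.7% of all genes. The depth differed as well: at least 5981805 reads, recovered from the whole steps of the FPKM values, lay behind the table in control 1, 2923773 in control 2, and 6988609, 6952821 and 5911052 in G-CSF replicates 1 to 3. The library size implied by the same steps was 9297699 and 3466772 reads in controls 1 and 2. It was 8596773, 9724139 and 7481252 reads in G-CSF replicates 1 to 3. By this size G-CSF replicate 2 was the largest library, control 1 the next and control 2 the smallest. The part of depth in these orders was not tested.

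**Figure D1:**
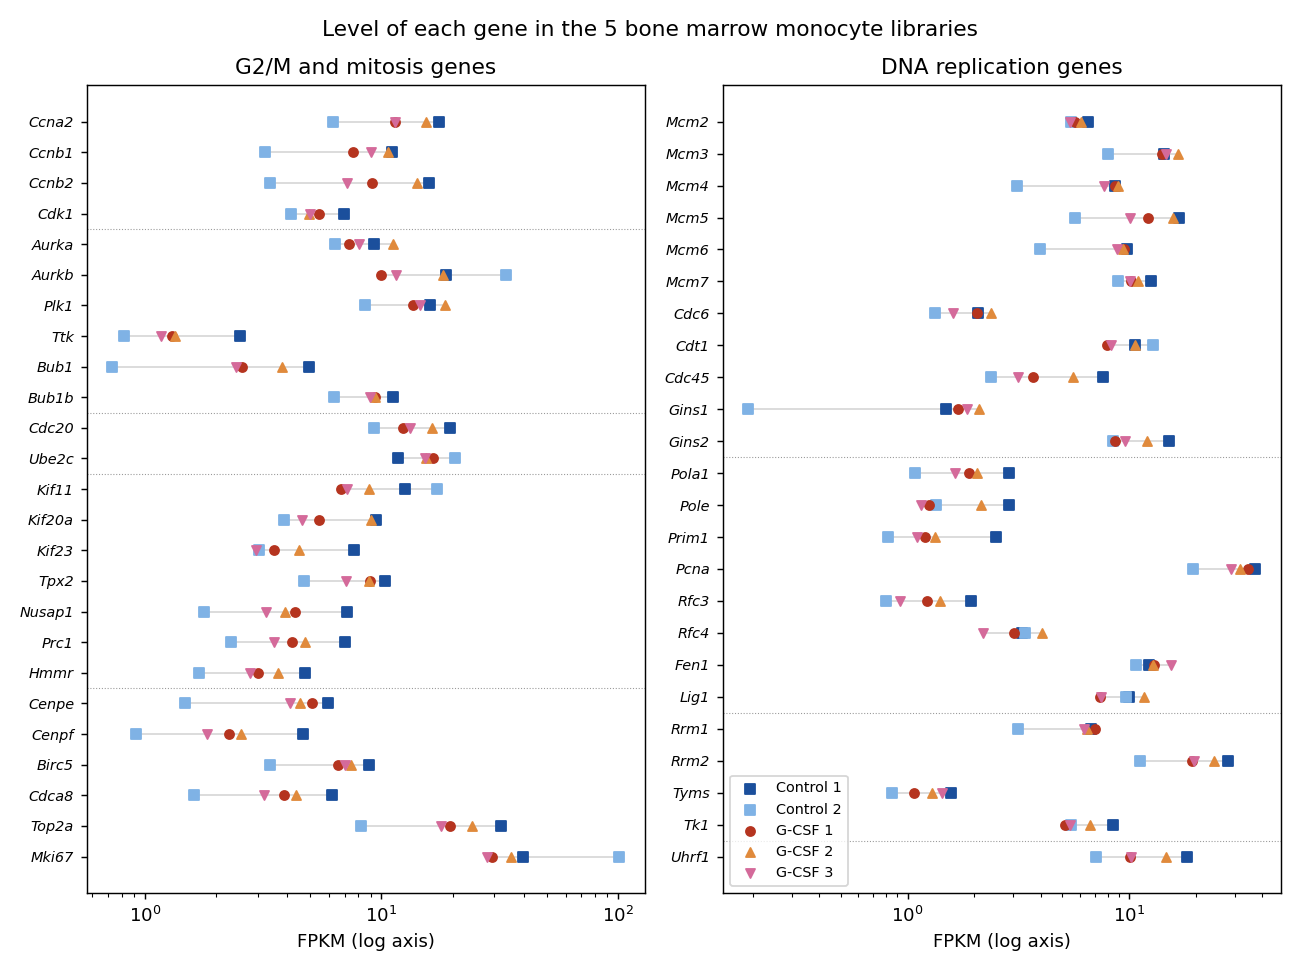
FPKM of each of the 49 genes in the 5 libraries, on a log axis, with 1 symbol per library and a line from the lowest to the highest. In 30 genes the G-CSF symbols lie between control 2 on the left and control 1 on the right, and Mki67, at 101 FPKM in control 2, stands at the far right.

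The cyclins and their kinase, which start mitosis, all followed this order. Ccnb1, which encodes cyclin B1 and lies at chr13:100778650-100786570 on GRCm38, stood at 11.0 and 3.21 FPKM in controls 1 and 2 and at 7.59, 10.7 and 9.07 FPKM in G-CSF replicates 1 to 3. Ccnb2, a second B-type cyclin, stood at 15.9 and 3.39 FPKM in the controls and at 9.12, 14.1 and 7.16 FPKM with G-CSF. Ccna2, the cyclin of S phase and G2, had 17.6 and 6.22 FPKM in the controls and 11.4, 15.5 and 11.4 FPKM with G-CSF. In these 3 genes control 2 was the lowest library and control 1 the highest, with the G-CSF libraries next to each other between them. Cdk1, the kinase that the cyclins activate, varied less, with 6.93 and 4.15 FPKM in the controls and 5.47, 4.94 and 4.98 FPKM with G-CSF.

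The mitotic kinases were less uniform. Plk1, which promotes centrosome maturation and mitotic entry, had 16.0 and 8.53 FPKM in the controls and 13.6, 18.5 and 14.6 FPKM with G-CSF. Aurka, the spindle-pole Aurora kinase, had 9.26 and 6.38 FPKM against 7.31, 11.2 and 8.03 FPKM. In both genes G-CSF replicate 2 was above control 1, so the groups overlapped. The spindle checkpoint kinases lay between the controls: Bub1 had 4.96 and 0.728 FPKM in the controls and 2.59, 3.80 and 2.42 FPKM with G-CSF. Bub1b, which inhibits the anaphase-promoting complex, had 11.2 and 6.28 FPKM against 9.41, 9.36 and 8.94 FPKM. Its 3 G-CSF libraries were the tightest of the 49 genes, with a coefficient of variation of 2.79%. Ttk, the kinase that starts checkpoint signalling, was low throughout, with 2.54 and 0.821 FPKM in the controls and 1.30, 1.34 and 1.17 FPKM with G-CSF. Aurkb, the kinase of the chromosomal passenger complex, departed from the others, with 18.7 and 33.7 FPKM in the controls and 9.99, 18.2 and 11.5 FPKM with G-CSF. All 3 of its G-CSF libraries were below both controls, and control 2 was the highest library.

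Exit from mitosis is run by the anaphase-promoting complex. Its activator Cdc20 had 19.4 and 9.27 FPKM in the controls and 12.4, 16.4 and 13.2 FPKM with G-CSF. Ube2c, the ubiquitin-conjugating enzyme that works with the complex, had 11.7 and 20.5 FPKM in the controls and 16.5, 15.4 and 15.3 FPKM with G-CSF. Both genes had the G-CSF libraries between the controls, but with opposite controls on top.

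Among the spindle genes, Tpx2, an activator of Aurora A, had 10.3 and 4.69 FPKM in the controls and 8.93, 8.84 and 7.06 FPKM with G-CSF. Nusap1, a microtubule-binding protein, had 7.15 and 1.78 FPKM against 4.33, 3.90 and 3.26 FPKM. Prc1, which bundles the central spindle, had 7.05 and 2.31 FPKM against 4.17, 4.75 and 3.51 FPKM. All of these lay between the controls, as did Hmmr, a spindle protein also known as a hyaluronan receptor, with 4.75 and 1.70 FPKM against 3.02, 3.67 and 2.78 FPKM. Kif20a, a motor of cytokinesis, had 9.50 and 3.86 FPKM in the controls and 5.44, 9.03 and 4.62 FPKM with G-CSF. Kif23, another motor of cytokinesis, had 7.66 and 3.03 FPKM against 3.50, 4.50 and 2.96 FPKM, and G-CSF replicate 3 was just below control 2. Kif11, the motor that separates the spindle poles, was again different, with 12.6 and 17.2 FPKM in the controls and 6.72, 8.89 and 7.17 FPKM with G-CSF. Its groups did not overlap, and all 3 G-CSF libraries were below both controls.

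The chromosome and kinetochore genes followed the common order in 5 of 6 cases, and Mki67 was the exception. Top2a, the topoisomerase that untangles sister chromatids, at chr11:98992943-99024189 on GRCm38, had 32.1 and 8.23 FPKM in the controls and 19.6, 24.1 and 17.8 FPKM with G-CSF. Cenpe, a kinetochore motor, had 5.94 and 1.47 FPKM against 5.09, 4.55 and 4.12 FPKM. Cenpf, a kinetochore protein of G2, had 4.66 and 0.916 FPKM against 2.28, 2.54 and 1.84 FPKM. The passenger complex genes Birc5 and Cdca8 followed the same order. Birc5 had 8.85 and 3.39 FPKM in the controls and 6.56, 7.41 and 6.99 FPKM with G-CSF, and Cdca8 had 6.17 and 1.62 FPKM against 3.89, 4.35 and 3.20 FPKM. Mki67, which encodes the Ki-67 protein that coats mitotic chromosomes and is the usual marker of cycling cells, had 39.5 and 101 FPKM in the controls and 29.4, 35.4 and 28.0 FPKM with G-CSF. Control 2, the lowest library for Top2a, was thus the highest for Mki67.

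The MCM helicase subunits differed in how far control 2 lay below the rest. Mcm4 had 8.63 and 3.13 FPKM in the controls and 8.62, 8.91 and 7.67 FPKM with G-CSF, and Mcm6 had 9.80 and 3.96 FPKM against 9.52, 9.39 and 8.85 FPKM. Mcm3 had 14.3 and 8.07 FPKM in the controls and 14.0, 16.7 and 14.6 FPKM with G-CSF. In these 3 subunits control 1 and the G-CSF libraries stood close together and control 2 stood apart below them. Mcm5 was spread more widely, with 16.8 and 5.71 FPKM against 12.1, 15.8 and 10.1 FPKM. Mcm7 had 12.5 and 8.93 FPKM against 10.2, 11.0 and 10.1 FPKM. Mcm2 was the most even subunit, with 6.52 and 5.47 FPKM in the controls and 5.72, 6.05 and 5.44 FPKM with G-CSF.

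The loaders and activators of the helicase were mixed. Cdc6, a helicase loader, had 2.08 and 1.32 FPKM in the controls and 2.07, 2.38 and 1.61 FPKM with G-CSF. Cdt1, the other loader, had 10.6 and 12.8 FPKM against 7.93, 10.6 and 8.30 FPKM, and was the only helicase gene higher in control 2 than in control 1. Cdc45, which joins the active helicase, had 7.61 and 2.39 FPKM against 3.68, 5.60 and 3.16 FPKM. Gins2, a GINS subunit, lay between the controls as well, with 15.2 and 8.45 FPKM against 8.63, 12.0 and 9.59 FPKM. Gins1, another GINS subunit, had 1.49 and 0.190 FPKM in the controls and 1.69, 2.10 and 1.85 FPKM with G-CSF. Its G-CSF libraries were above both controls, but only 1 read was recovered in control 2, against 21 in control 1 and 22, 31 and 21 with G-CSF. The G-CSF level was 9.94 times that of control 2 with an exact 95% interval of 1.73 to 398, and 1.27 times that of control 1 with an interval of 0.773 to 2.17. Both intervals cover counting error only.

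Of the genes at the replication fork, Pcna, the sliding clamp of the polymerases, was the most abundant, with 37.1 and 19.5 FPKM in the controls and 34.5, 31.5 and 29.0 FPKM with G-CSF. Pola1, the primase-associated polymerase, had 2.87 and 1.08 FPKM against 1.90, 2.05 and 1.64 FPKM. Prim1, the primase, had 2.50 and 0.820 FPKM against 1.20, 1.33 and 1.11 FPKM. These 3 genes lay between the controls, and so did the clamp loader gene Rfc3, with 1.94 and 0.799 FPKM against 1.22, 1.40 and 0.925 FPKM. Rfc4, another clamp loader subunit, had 3.30 and 3.39 FPKM in the controls and 3.04, 4.02 and 2.18 FPKM with G-CSF. Pole, the leading-strand polymerase, had 2.86 and 1.34 FPKM against 1.25, 2.15 and 1.15 FPKM. For both, the G-CSF libraries overlapped a control. The maturation of Okazaki fragments needs Fen1 and Lig1, and their controls differed little. Fen1, the flap nuclease, had 12.3 and 10.7 FPKM in the controls and 13.02, 12.8 and 15.4 FPKM with G-CSF, above both. Lig1, the ligase, had 9.95 and 9.69 FPKM against 7.40, 11.7 and 7.43 FPKM, with G-CSF replicate 2 above and the other G-CSF libraries below both controls.

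Nucleotide supply and methylation upkeep complete the replication genes. Rrm2, the regulated subunit of ribonucleotide reductase, had 28.0 and 11.2 FPKM in the controls and 19.2, 24.0 and 19.6 FPKM with G-CSF. Rrm1, its catalytic partner, had 6.71 and 3.14 FPKM against 7.04, 6.42 and 6.25 FPKM, so control 2 stood apart from the other 4 libraries. Tk1, thymidine kinase, had 8.44 and 5.49 FPKM against 5.15, 6.67 and 5.40 FPKM, with the G-CSF libraries around control 2. Tyms, thymidylate synthase, was low, with 1.57 and 0.853 FPKM against 1.07, 1.28 and 1.43 FPKM. Uhrf1, which brings the maintenance methyltransferase to newly copied DNA, had 18.3 and 7.11 FPKM against 10.1, 14.6 and 10.2 FPKM, again between the controls.

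Tested against both controls together, no cell cycle or replication gene passed the adjusted test for a change with G-CSF. All 49 genes passed the filter of at least 1 FPKM in at least 2 libraries. With limma on log2(FPKM + 1) and Benjamini-Hochberg adjustment over the 16791 genes, 0 of 49 were called higher and 0 lower at an adjusted p under 0.05, against 0.00596% and 0% of all genes. At an unadjusted p under 0.05, limma gave 0 higher, where 7.90% of all genes were, and 1 lower, Kif11, where 4.76% were. A voom fit of the reads recovered for 47 of the genes also called 0, with 3 lower at an unadjusted p under 0.05, where 4.89% of all genes in that fit were. The estimates were positive in 28 genes and negative in 21, a split that became 22 and 27 after quantile normalization and 23 and 26 after median centring. The median log2 fold change was 0.04, against 0.08 over all genes. For the G2 and mitosis genes the median was 0.07, and -0.01 under quantile normalization, and for the replication genes it was 0.00, and -0.09 under quantile normalization.

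The intervals of single genes were wide, most of all where the controls lay far apart. Top2a averaged 20.1 ± 16.8 FPKM (SD, n = 2) in the controls and 20.5 ± 3.24 FPKM (SD, n = 3) in the treated group. The estimate was 0.29 ± 0.55 (SE) on the log2 scale, with a 95% interval of -1.08 to 1.65. Its adjusted p in limma was 0.833. Ccnb1 changed by 0.49 ± 0.47 (SE) on the log2 scale, with an interval of -0.67 to 1.66, and Pcna by 0.22 ± 0.34 (SE), with an interval of -0.62 to 1.07. Cdk1 and Mcm2, whose controls lay closer together, were bounded more tightly. The estimate was -0.06 ± 0.27 (SE) for Cdk1, with an interval of -0.73 to 0.61, and -0.05 ± 0.22 (SE) for Mcm2, with an interval of -0.60 to 0.49. The highest estimates were those of Gins1 at 0.74 ± 0.37 (SE), Mcm4 at 0.57 ± 0.39 (SE) and Ccnb1, and the lowest those of Mki67, Aurkb and Kif11. None of them passed the adjusted test: the limma adjusted p was 0.449 for Gins1 and 0.545 for Mcm4.

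**Figure D2:**
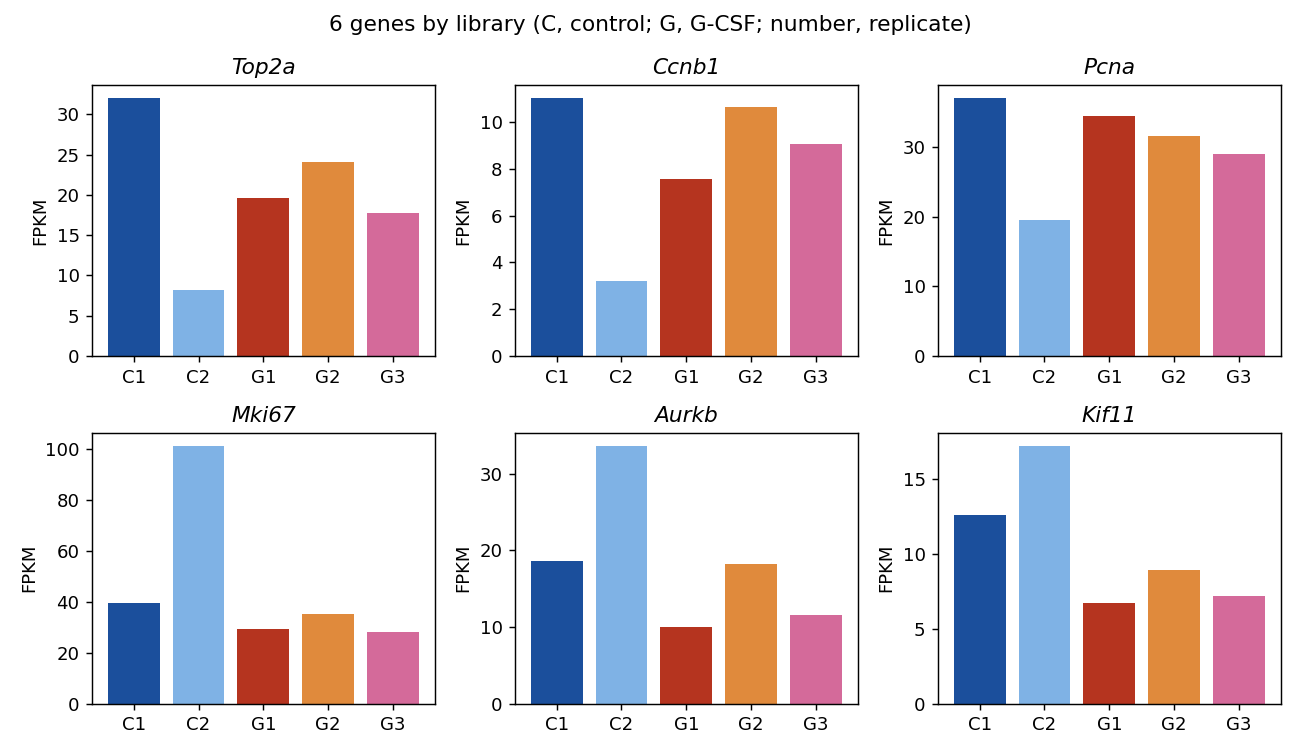
FPKM of Top2a, Ccnb1, Pcna, Mki67, Aurkb and Kif11 in each library, 1 bar per library from 0. The upper 3 genes have control 1 highest and control 2 lowest, and the lower 3 have control 2 highest.

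Set against control 1 alone, nearly all of the genes were lower with G-CSF, without any passing the adjusted test. The lone control was assumed to vary like the G-CSF libraries. Over all genes tested, the controls differed in either direction by a median of 0.683 on the log2 scale. The G-CSF libraries spanned a median of 0.385. P-values from a fit with 1 control thus leave out the scatter between controls. The estimates were negative in 45 of 49 genes, and the exceptions were Ube2c, Gins1, Fen1 and Mcm3. All 3 G-CSF libraries lay below control 1 in 37 of 49 genes, against 31.2% of all genes tested. The median log2 fold change was -0.40 over the 49 genes, -0.47 for G2 and mitosis and -0.23 for replication, against 0.05 over all genes. In limma 0 of 49 genes were called lower, against 0% of all genes, and 9 were lower at an unadjusted p under 0.05, where 7.84% of all genes were. These 9 were Cenpf, Nusap1, Kif23, Prim1, Ttk, Kif11, Prc1, Cdca8 and Top2a, and 8 of them belong to G2 and mitosis. The lowest estimate was that of Kif23, at -0.91 ± 0.24 (SE), followed by Cenpf at -0.82 ± 0.21 (SE) and Nusap1 at -0.76 ± 0.20 (SE). The smallest adjusted p of the 49 genes in this limma fit was 0.211, and voom on the recovered reads called 0 genes. At an unadjusted p under 0.05, 16 genes were lower in voom, where 10.1% of all genes were, and 16 among protein-coding genes only, where 9.35% were. The count was 18 after quantile normalization, where 9.89% of all genes were lower, and 9 after median centring, where 7.67% were.

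Set against control 2 alone, most of the same genes were higher with G-CSF. The same assumption was made about the lone control, so the calls below count no scatter between controls. The estimates were positive in 42 of 49 genes, and all 3 G-CSF libraries lay above control 2 in 38, against 47.3% of all genes. The median log2 fold change was 0.56 over the 49 genes, 0.63 for G2 and mitosis and 0.35 for replication, against 0.19 over all genes. In limma 12 of 49 genes were called higher, where 16.1% of all genes were, and 2 were called lower, where 11.9% were. After quantile normalization 7 were called higher, where 11.3% of all genes were, and 2 lower, where 11.8% were. After median centring 8 were called higher, against 13.1% of all genes, and 3 lower, against 13.9%. Among the 10524 protein-coding genes tested alone, 22 of the 49 were called higher, against 27.2%, and 3 lower, against 16.5%. In voom 8 of 47 were called higher, against 11.2%, and 3 lower, against 11.9%. Of the 12 genes, 6 belong to mitosis, namely Ccnb1, Bub1, Cenpe, Birc5, Cdca8 and Top2a, and 6 to replication, namely Mcm3, Mcm4, Mcm6, Gins1, Rrm1 and Rrm2. Against this control Mcm4 rose by 1.18 ± 0.17 (SE) on the log2 scale, with a limma adjusted p of 0.0190. Top2a rose by 1.21 ± 0.23 (SE), with a limma adjusted p of 0.0293, where its estimate against control 1 was -0.63 ± 0.23 (SE). Ccnb1 likewise rose by 1.25 ± 0.23 (SE) against control 2 and had an estimate of -0.26 ± 0.23 (SE) against control 1. Both comparisons share the G-CSF libraries, so they are not independent of each other. They differ by the gap between the controls, whose median was 0.94 on the log2 scale over the 49 genes and 0.15 over all genes.

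**Figure D3:**
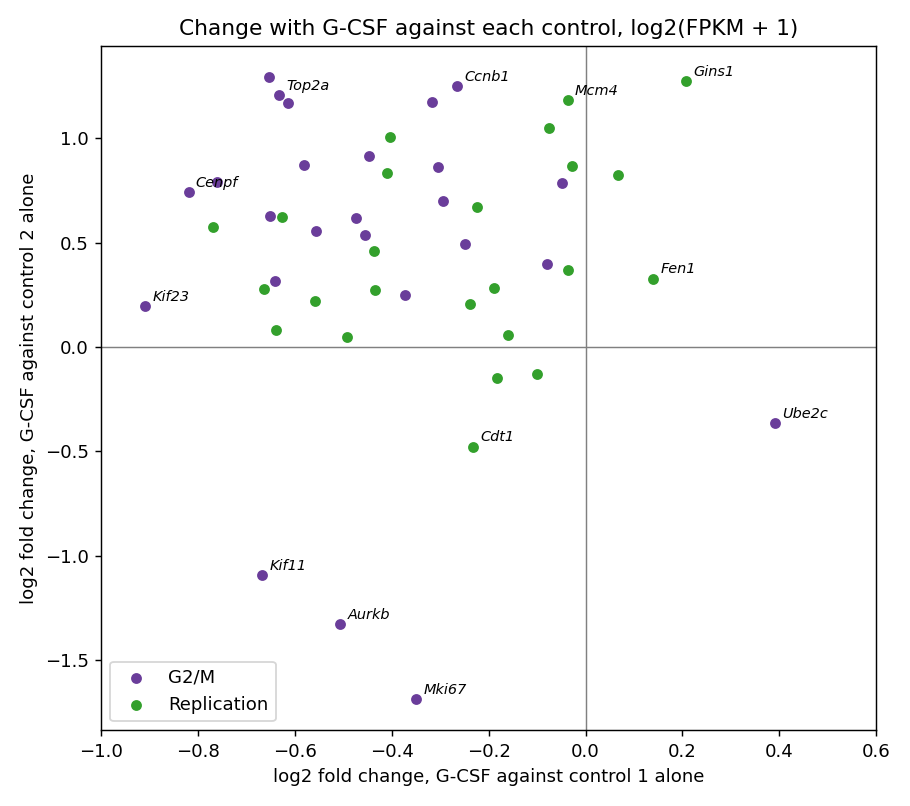
Log2 fold change of each of the 49 genes with G-CSF against control 1 alone (horizontal) and against control 2 alone (vertical), from limma on log2(FPKM + 1). Most points lie in the upper left, negative against control 1 and positive against control 2, while Mki67, Aurkb and Kif11 lie at the bottom, negative against both.

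**Figure D4:**
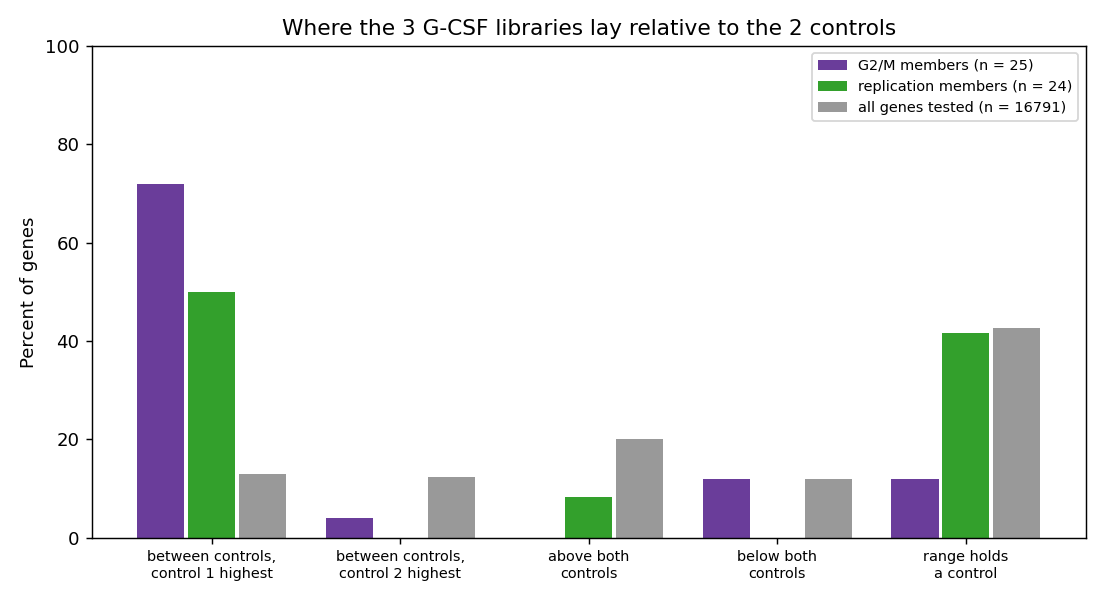
Percent of genes in each arrangement of the 3 G-CSF libraries relative to the 2 controls, for the 25 G2 and mitosis genes, the 24 replication genes and the 16791 genes tested. The arrangement with G-CSF between the controls and control 1 highest holds 18 of 25, 12 of 24 and 13.1%.

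Mki67, Aurkb and Kif11 were the only 3 of the 49 genes with all G-CSF libraries below both controls, an arrangement found in 11.9% of all genes tested, and only Gins1 and Fen1 lay above both, where 20.0% of all genes did. Mki67, at chr7:135689784-135716361 on the minus strand of GRCm38, averaged 70.4 ± 43.7 FPKM (SD, n = 2) in the controls and 30.9 ± 3.90 FPKM (SD, n = 3) in the treated group. Its log2 fold change was -1.02 ± 0.44 (SE), with a 95% interval of -2.11 to 0.08 and a limma adjusted p of 0.412. Aurkb averaged 26.2 ± 10.6 FPKM against 13.2 ± 4.38 FPKM, with an estimate of -0.92 ± 0.39 (SE) and a limma adjusted p of 0.406. Kif11 averaged 14.9 ± 3.28 FPKM against 7.59 ± 1.15 FPKM, with an estimate of -0.88 ± 0.26 (SE), an interval of -1.53 to -0.23 and a limma adjusted p of 0.319. Kif11 was the only 1 of the 3 whose interval excluded 0, and none passed after adjustment. Against control 2 alone Mki67 fell by 1.69 ± 0.22 (SE) and Kif11 by 1.09 ± 0.21 (SE) on the log2 scale, with limma adjusted p of 0.0173 and 0.0303, and Aurkb had an estimate of -1.33 ± 0.37 (SE) with an adjusted p of 0.0600. Against control 1 alone the estimates were smaller, at -0.35 ± 0.21 (SE) for Mki67, -0.51 ± 0.37 (SE) for Aurkb and -0.67 ± 0.21 (SE) for Kif11.

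The high Mki67 value of control 2 rested on 3531 recovered reads, against 3695 in the more deeply sequenced control 1 and 2540, 3459 and 2111 with G-CSF. Ratios were taken between 7 pairs of genes that act in related steps, chosen after their values were seen. The ratio of Mki67 to Top2a in FPKM was 1.23 in control 1, 12.3 in control 2 and 1.50, 1.47 and 1.58 with G-CSF. Aurkb to Aurka was 2.01 in control 1, 5.28 in control 2 and 1.37, 1.62 and 1.44 with G-CSF. Kif11 to Tpx2 was 1.22 in control 1, 3.67 in control 2 and 0.753, 1.01 and 1.02 with G-CSF. Ube2c to Cdc20 was 0.605 in control 1, 2.22 in control 2 and 1.33, 0.943 and 1.16 with G-CSF. In each of these pairs control 2 was the highest library. Each numerator was a gene higher in control 2 than in control 1 and in every G-CSF library. Each denominator was a gene lower in control 2 than in all of these. That control 2 was the highest library in these pairs was therefore fixed by their choice. Among replication pairs, Mcm3 to Mcm6 was also highest in control 2, by less, at 1.46 and 2.04 in the controls and 1.47, 1.77 and 1.65 with G-CSF. In the other pairs control 2 lay within the range of the rest: Pcna to Mcm3 was 2.59 and 2.41 in the controls and 2.46, 1.89 and 1.98 with G-CSF, and Rrm2 to Rrm1 was 4.18 and 3.58 against 2.73, 3.74 and 3.14. Among 5925 protein-coding genes with a mean of at least 5 FPKM, 4.07% were at least as high in control 2 relative to the G-CSF mean as Mki67, which was 3.27 times that mean. The share was 7.07% for Aurkb and 9.30% for Kif11.

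Related genes outside the 49 were read from 7 lists of the same pathways, and no gene of these lists passed the adjusted limma test against both controls. Among 41 tested genes of 42 in a second list of mitosis genes, the estimates were positive in 10 and negative in 31, with a median log2 fold change of -0.16. This list had all 3 G-CSF libraries below control 1 in 36 genes, against 31.2% of all genes, and above control 2 in 27, against 47.3%. Control 1 was above control 2 in 38, against 56.0%. The G-CSF libraries lay between the controls with control 1 highest in 24, against 13.1%. At an unadjusted p under 0.05, 2 of these 41 genes were lower and 1 higher, against the 4.76% and 7.90% of all genes given above. They were Knl1, a kinetochore scaffold, and Kif18b, a kinesin, on the lower side, and Pttg1, which encodes securin, on the higher. Knl1 had 7.58 and 5.37 FPKM in the controls and 3.34, 3.97 and 3.41 FPKM with G-CSF, below both. In 37 further replication genes the estimates were positive in 21 and negative in 16, with a median of 0.05, and control 1 exceeded control 2 in 27. The G-CSF libraries lay between the controls with control 1 highest in 11 of these 37. In 14 tested genes of 16 for the S-phase checkpoint and repair, 4 were positive and 10 negative, with a median of -0.07. Control 1 exceeded control 2 in all 14, and the G-CSF libraries lay between them in 9.

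Upstream regulators were split. Of the 19 tested E2F, RB and MuvB genes, 6 were positive and 13 negative, with a median of -0.17, and the G-CSF libraries lay between the controls with control 1 highest in 5, where 13.1% of all genes did. E2f2, the most abundant of them, had 36.8 and 40.8 FPKM in the controls and 24.2, 42.5 and 26.0 FPKM with G-CSF. The 14 genes for other cyclins, CDKs and their partners, from G1 and later phases, split into 6 positive and 8 negative. Their median was -0.11. The 15 tested subunits and regulators of the anaphase-promoting complex split into 11 and 4, with a median of 0.04. Control 1 exceeded control 2 in 7 of those 14 and in 10 of those 15, and the G-CSF libraries lay between the controls with control 1 highest in 2 and in 5. Of 5 tested CDK inhibitors, Cdkn1a, which encodes the arrest protein p21, had 6.24 and 10.8 FPKM in the controls and 24.8, 20.0 and 22.0 FPKM with G-CSF. The groups did not overlap, and the log2 fold change was 1.33 ± 0.30 (SE), with a limma adjusted p of 0.258. Cdkn2c, which encodes the Cdk4 and Cdk6 inhibitor p18, had 13.9 and 54.0 FPKM in the controls and 9.09, 11.2 and 9.60 FPKM with G-CSF. As for Mki67, control 2 was the highest library and the G-CSF libraries lay below both controls. The log2 fold change of Cdkn2c was -1.39 ± 0.56 (SE), with a limma adjusted p of 0.389. Cdkn2d, the most abundant of the 5, had 31.0 and 15.8 FPKM in the controls and 26.2, 43.2 and 27.6 FPKM with G-CSF. Of the 5 inhibitors, 1 lay above both controls, 1 below both and 1 between them with control 1 highest. The rest overlapped a control.

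Markers of the cells that the preparations could hold differed between libraries as well. The 12 classical monocyte markers summed to 5208 and 1672 FPKM in the controls and to 5379, 3693 and 6045 FPKM with G-CSF, and all 12 were detected and tested. Lyz2 alone gave 3509 FPKM in control 1 and Chil3 another 1459 FPKM. By gene, 8 of the 12 lay above both controls in all G-CSF libraries, where 20.0% of all genes did, and 1 below both. Ccr2, the receptor that lets monocytes leave the marrow, had 3.82 and 1.24 FPKM in the controls and 18.8, 21.2 and 17.0 FPKM with G-CSF. The 11 neutrophil markers, which include granule genes such as Ltf and Camp, summed to 11604.5 and 2165 FPKM in the controls. With G-CSF they summed to 6037, 6841 and 4487 FPKM. Control 1 was the highest library, G-CSF replicate 2 the second and control 2 the lowest, as for the median of the G2 and mitosis genes. G-CSF replicates 1 and 3 stood in the opposite order to that median. By gene, control 1 exceeded control 2 in all 11, where 56.0% of all genes did. The G-CSF libraries lay between the controls with control 1 highest in 5 of them, where 13.1% of all genes did. The 9 genes listed for granulocyte precursors summed to 511 and 420 FPKM in the controls and to 770, 963 and 789 FPKM with G-CSF. Tuba1b, a tubulin gene that is not specific to these cells, gave 171 and 251 FPKM of the control sums. By gene, 5 of these 9, namely Mpo, Elane, Prtn3, Ctsg and Ms4a3, lay above both controls with G-CSF, and Gfi1 lay below both. The 10 erythroid markers in the table summed to 584 and 143 FPKM against 38.6, 336 and 49.1 FPKM. Of the 5 erythroid markers tested, all had the G-CSF libraries below control 1, and 2 had them below both controls. Among G-CSF libraries replicate 2 was the highest for the granulocyte precursor and erythroid sums, as it was for 38 of the 49 genes. It was also the highest for the neutrophil sum and for the stem and T and NK cell sums below. For the monocyte and megakaryocyte sums it was the lowest, and for the B cell precursor sum it was in the middle. The 11 B cell precursor markers summed to 211 and 112 FPKM in the controls and 61.0 to 80.4 FPKM with G-CSF, the 8 stem and progenitor markers to 21.8 and 16.7 against 10.2 to 11.2 FPKM, the 5 megakaryocyte markers to 283 and 755 against 351 to 561 FPKM, and the 9 T and NK cell markers to 8.30 and 8.15 against 11.8 to 13.2 FPKM. None of these 8 lists had a gene at 0 in all libraries, and 4 erythroid, 4 T and NK cell, 3 stem and progenitor and 1 B cell precursor markers stayed under 1 FPKM throughout. The part of cell composition in the levels of the 49 genes was not tested.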

How the data were processed

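Bulk RNA-seq of bone marrow monocytes (3 libraries with G-CSF, 2 without) was read from 1 table of FPKM values deposited by the authors, with 1 column per library and 0 further numeric columns. Per the submitters' processing notes the genome was mm10, and the only tool named is Cell Ranger 5.0.1, made for single cells. The aligner, counter, annotation, strand setting and monocyte sort are not given in the sources used here, and the extraction text of the bulk samples is about skin. Without strand or multimapping rules, reads of antisense genes and of processed pseudogenes such as those of Tyms cannot be told apart from the gene's own.

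Genes with at least 1 FPKM in at least 2 libraries (16791) were tested as log2(FPKM + 1) in R 4.3.3 by limma 3.58.1 (eBayes with trend, two-sided, Benjamini-Hochberg), against both controls and against each alone. With a pseudocount of 1, fold changes of low genes are understated. Of the rows, 89.6% matched GENCODE M21 by symbol, and FPKM times exon length gave whole reads within 0.001 in all libraries for 94.3% of those. Gene coordinates are 1-based on GRCm38 from that annotation. Summed recovered reads miss unmatched rows and are lower bounds of depth, and control 2 was the shallowest, so its low genes are the least precise. Chi-square over degrees of freedom was 99.2 for the control pair and ranged from 7.11 to 41.4 among pairs with G-CSF, so every pair differed by more than sampling noise. The main fit was tested on simulated data with equal noise in all libraries, which does not cover controls as far apart as these.

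The members and lists were chosen with earlier results of these data known. Every member could be named, and of each pathway or marker list the 3 genes with the smallest p and the most abundant one. Other marker genes named were chosen after their values were seen. A planned ranking of genes by correlation with the mitosis genes was not made, because 5 libraries are too few. Alternatives were other pseudocounts, filters and scalings, limma without trend or robust, a replicate block, leaving out each library, protein-coding genes only and voom. Quantile normalization and median centring against each control alone were added after seeing the data. Tables were made in Python 3.11.15 (pandas 2.3.3, numpy 2.4.6, scipy 1.17.1) and plots in matplotlib 3.10.9.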

Additional observations from a re-analysis of the deposited data

How the results depend on the processing

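The result depended on which control was used. Against both controls 0 genes were called, and with 1 library left out the count ranged from 0 to 14, the 14 coming without control 1. The median log2 fold change over the same fits ranged from -0.47 without control 2 to 0.63 without control 1 for G2 and mitosis genes, and from -0.23 to 0.35 for replication genes. The sign of single genes turned likewise: Top2a ranged from -0.63 to 1.21, Ccnb1 from -0.26 to 1.25, Pcna from -0.22 to 0.67, Mcm4 from -0.037 to 1.18, Cdk1 from -0.37 to 0.25 and Mcm2 from -0.16 to 0.056. Mki67, Aurkb and Kif11 stayed negative and Gins1 positive in every fit with a library left out. Against control 2 alone, where 14 genes were called, testing protein-coding genes only called 25 (22 higher and 3 lower), quantile normalization 9, and voom and median centring 11 each. Of all genes, 11.2% to 27.2% were called higher and 11.8% to 16.5% lower in these fits. Against control 1 alone 0 were called under these 4 alternatives. The replicate numbers pair samples only by number: the correlations of deviations between same-numbered libraries were -0.07 and -0.23, and with the replicate block 0 genes were called, with medians of 0.14 for G2 and mitosis and 0.06 for replication. Other pseudocounts, filters and fits left 0 genes called against both controls. Depth limits Gins1, with 1 read in control 2, most of all, and the cause of the gap between the controls was not tested.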
